A study of Rattus norvegicus with 4 samples.

Results

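The cytosolic ribosomal protein genes of rat skeletal muscle were examined across the 4 arrays of a study of a rat model of intermittent claudication, in which poor blood supply makes the legs hurt during walking. Members were all genes whose platform symbol is that of a ribosomal protein of the cytosolic ribosome (Rpl or Rps with a number, Rpsa, or Rplp with a number) on a probe set with a single symbol. Of several probe sets of a gene the one with the highest mean over the arrays was taken, and the Rps6k kinases were left out. This gave 48 genes of 14218 with a single-symbol probe set, of which 28 encode large subunit proteins, 14 small subunit proteins, 1 a stalk protein and 5 paralogues (symbols ending in l or l1). All animals were of the F344/DuCrlCrlj strain. The groups were ischemia with electrical stimulation (ischemia + ES, below ES), ischemia with exercise (exercise), ischemia alone and sham, with 1 array each, so that hindlimb ischemia was common to the first 3 groups. The sources used here do not give the muscle taken, the animals' age and sex, how many animals stood behind an array or when stimulation and exercise took place. Since each group has 1 array, differences were not checked by replicates, no p-value was computed, and every value below describes these arrays.

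The ribosome translates mRNA into protein, and its small subunit reads the message while its large subunit forms the peptide bonds. Ribosomal proteins are made in matched amounts, and their mRNAs begin with a run of pyrimidines (the 5' terminal oligopyrimidine, or TOP, motif) through which mTORC1 signalling controls their translation. In muscle, ribosome content limits protein synthesis during growth, and striated muscle has in addition Rpl3l, a paralogue of Rpl3 that takes its place in mature fibres.

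The start sites of 8 members are shown, since the members are known for a common start. For 41 of 48 members RefSeq (build GRCr8) gave a promoter entry, on 14 chromosomes. The windows hold 15 bases before and 15 bases from the annotated start, 5' to 3' on the strand of the gene. Capitals mark a C within 5 bases of the start together with the unbroken pyrimidines after it, at least 4 of them. The first 4 genes have such a run and the last 4 do not. Their windows are chr12:46718376-46718405 (minus strand) for Rplp0, chr2:23814502-23814531 (plus) for Rps23, chr3:36661925-36661954 (plus) for Rpl12, chrX:121195882-121195911 (minus) for Rpl39, chr7:113507976-113508005 (minus) for Rpl3, chr10:14258431-14258460 (plus) for Rpl3l, chr1:105325255-105325284 (plus) for Rpl18 and chr8:76443643-76443672 (plus) for Rps27l.
Rplp0: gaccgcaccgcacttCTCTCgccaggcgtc
Rps23: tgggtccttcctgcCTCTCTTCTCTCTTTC
Rpl12: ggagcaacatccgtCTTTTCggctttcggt
Rpl39: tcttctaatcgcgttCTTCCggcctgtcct
Rpl3: ccagcgcctgctcgatctctatcggcggcg
Rpl3l: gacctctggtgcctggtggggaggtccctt
Rpl18: tctggacctggtctagcaggaggcgccatc
Rps27l: gtttattcatttgtcattatttgtggtgtc

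An oligopyrimidine start was present in 20 of 41 members (48.8%) and in 4656 of 27457 genes with an entry (17.0%). In the whole window from 250 bases before to 50 bases after the start, the ETS-type word CCGGAAG was found on either strand in 10 of 41 members (24.4%), against 9.22% of all entries and 18.3% of those of the measured genes. The word AAGATGGC, part of the motif of the factor YY1, was found in 9.76% of members, against 3.44% of all entries and 5.79% of those of the measured genes. TATAAA was found in 14.6% of members, against 14.3% of all entries and 6.85% of those of the measured genes. CCGGAAG and AAGATGGC can share the letters AAG, so that 1 stretch can hold both. A match is a description of the letters in the window, and annotated starts can lie some bases away from the true ones.

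Signals are MAS5 intensities on a linear scale, rescaled to a common 2% trimmed mean, and values under a floor of 30.1 (the 50th percentile of all values) were set to it before log2 was taken. Of the 48 members, 44 were above the floor on at least 1 array (measured) and 42 on all 4. Rpl28, Rpl30, Rpl39l1 and Rps13 were at or under the floor on every array and have no ratio. A mean signal of at least 1000, a limit set after the values were seen, was reached by 39 members, between 1700 and 11111 with a median of 5620, and these are called bright. The 5 measured members below it were Rpl7l1, Rps27l, Rpl39, Rps4y2 and Rpl26l1. Members have many near-identical pseudogenes and copies, and a probe set can also bind transcripts of these.

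The order of the arrays among the bright members depended on the scaling. With the common trimmed mean, of the 39, 36 had their lowest signal on the ischemia array and the other 3 (Rpl3, Rpl19 and Rpl21) on the sham array, while 24 had their highest on the ES array and 15 on the exercise array. Among the 1186 other genes with a mean signal of at least 1000, 30.8% were lowest on the ischemia array, 35.7% highest on the ES array and 19% highest on the exercise array. The summed signal of the bright members was 236778 for ES, 234664 for exercise, 206722 for ischemia and 218497 for sham. The median spread from the lowest to the highest array was 0.22 in log2 for a bright member, so the order rests on small differences. The ischemia array was the lowest for 32 of the 39 when scaled on the gene median, 26 under cyclic loess and 13 under quantile normalization, where the sham array was the lowest for 18 and the ES array for 8. Among the other bright genes the share lowest on the ischemia array was 27.7%, 27.9% and 24.5% under these scalings.

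**Figure D1:**
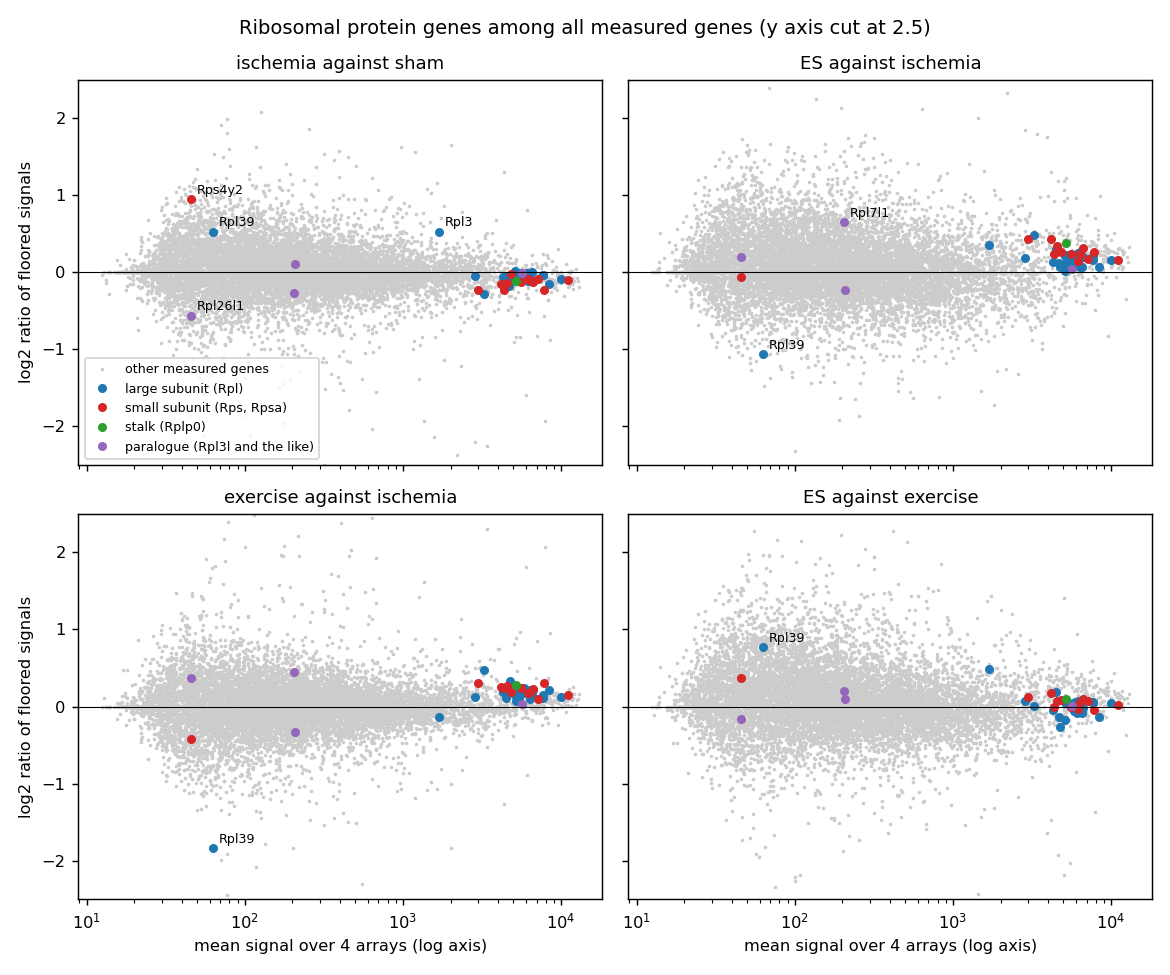
Log2 ratio of floored signals (y axis, of which the outermost genes are not shown) against the mean signal over the 4 arrays (x axis, log scale) in 4 comparisons; grey points are other measured genes and coloured points the 44 measured members by subunit. The bright members form a tight cloud that lies just under 0 for ischemia against sham and above 0 for ES and for exercise against ischemia, while Rpl3 and the dim Rpl39 lie away from it; under quantile normalization the cloud's median for ischemia against sham is 0.02.

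**Figure D2:**
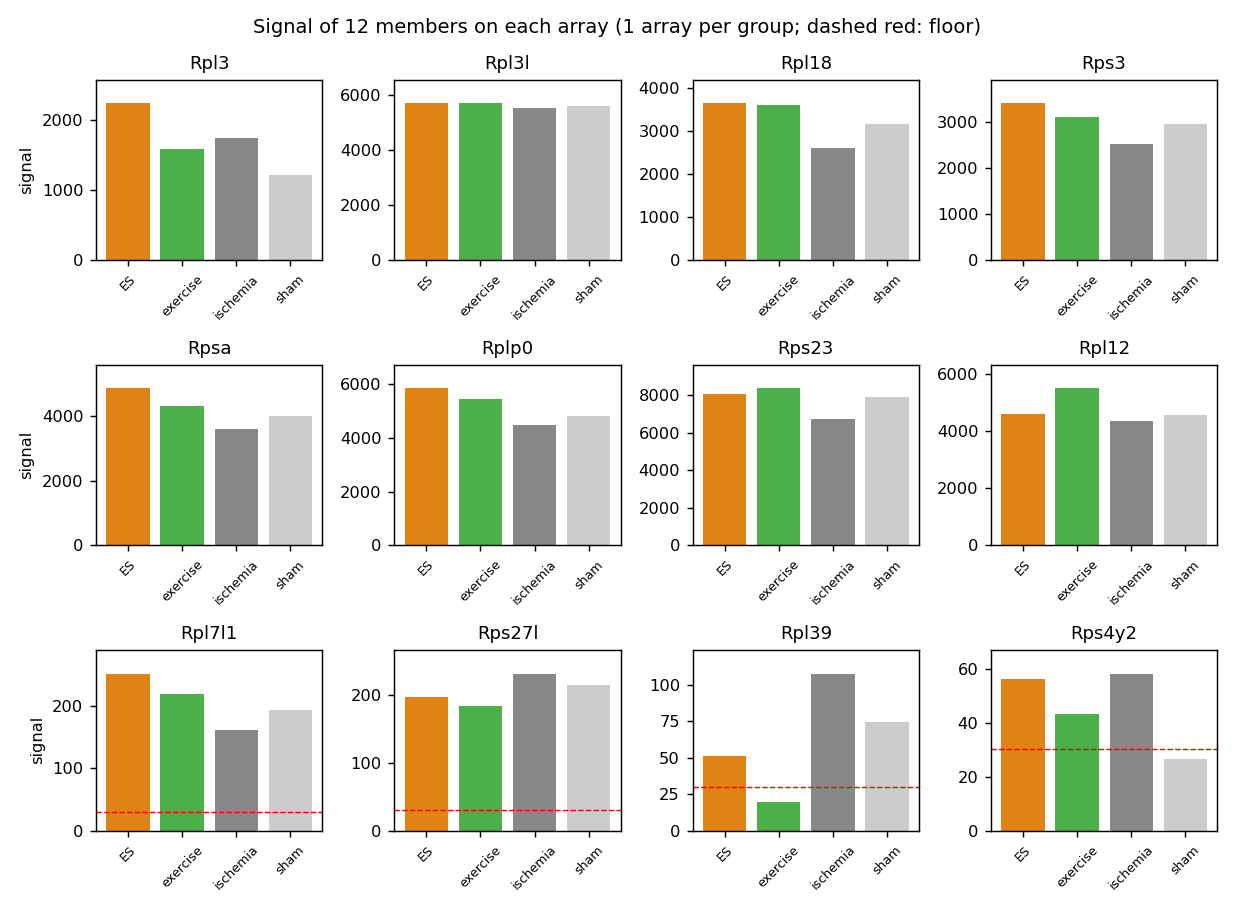
Signal on a linear scale (y axis, from 0) on the ES, exercise, ischemia and sham arrays (x axis, 1 array per group) for 12 members; the dashed line is the floor of 30.1, drawn for dim members. Rpl18, Rps3, Rpsa, Rplp0 and Rps23 are lowest on the ischemia array, Rpl3l is nearly level, and Rpl3 is highest with ES and lowest in sham.

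Ischemia was compared with sham to describe the members in the ischemic muscle. Their median log2 ratio was -0.08, a signal 5.13% lower with ischemia, and turned to 0.02 under quantile normalization, so the direction depends on how the arrays are scaled. The median of all 10092 measured genes was 0.00. Of 44 measured members 38 were lower and 6 higher with ischemia (below 0 were 45.6% of all genes, above 0 50.3%). Most members are bright, and of the 1186 other bright genes 57.7% were below 0. The median of those genes was -0.03, and 0.01 under quantile normalization. Under quantile normalization 18 members were lower and 26 higher. None passed 2-fold, against 1.64% of all genes.

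Among large subunit genes the bright members had a median of -0.06 (0.02 under quantile normalization), and among small subunit genes -0.13, with all 12 below 0 (9 of 12 under quantile normalization). Rpl18, a large subunit protein gene, had a signal of 2603 with ischemia against 3159 in sham, 17.6% lower. Rps23, whose protein lines the decoding centre, had 6749 with ischemia and 7908 in sham, 14.7% lower. Rps3, at the channel where mRNA enters the small subunit, had 2531 with ischemia and 2961 in sham, 14.5% lower. These 3 were lower with ischemia under all 4 scalings tried. Rps6, the small subunit protein that S6 kinases phosphorylate, was 8.02% lower, at 5007 with ischemia against 5444 in sham.

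Rpl3 had the highest ratio of the bright members. It encodes a core protein of the large subunit near the peptidyl transferase centre. Its signal was 1749 with ischemia against 1213 in sham, 44.2% higher, a log2 ratio of 0.53 that lay above those of all 38 other bright members. The difference between its ratio and the median of the others was 0.61, and 0.55 to 0.61 over the 4 scalings. The common trimmed mean and the gene median are each 1 factor per array. Differences and ranks among bright members, here and below, are therefore the same under both. Its second probe set, a dim one open to cross-hybridization, had a ratio of 0.38. Rpl3l, the muscle paralogue, had 5533 with ischemia and 5577 in sham, a log2 ratio of -0.01 that changed sign with the scaling. The ratio of Rpl3 exceeded that of Rpl3l by 0.54.

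Dim members gave wider values. Rpl26l1, a paralogue of Rpl26, had 37.2 with ischemia and 55.1 in sham, 1.48-fold lower. Rps4y2, a paralogue of the small subunit gene Rps4x, had 58.3 with ischemia and was under the floor in sham, at least 1.93-fold higher. Rpl39, whose protein lines the exit tunnel of the large subunit, had 108 with ischemia and 74.6 in sham, 1.44-fold higher. Its only probe set had a mean signal of 63.3, beside a median of 5620 for the bright members. How well that probe set reports the mRNA of Rpl39 was not tested, which limits its ratios here and below. Rpl7l1, a paralogue of Rpl7, was 17.1% lower on its brighter probe set, while the other probe set of the gene gave 0.17 in log2, the opposite sign. Rps27l, a paralogue of Rps27 known as a p53 target, was 7.76% higher, at 232 with ischemia and 215 in sham.

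ES was compared with ischemia, since the study asked which differences stimulated and exercised muscle have against untreated ischemia. The median log2 ratio of the members was 0.20, a signal 14.7% higher with ES, and it was 0.04 under quantile normalization. All 39 bright members were higher (26 of 39 under quantile normalization), beside a median of 0.01 for the other bright genes (-0.06 when scaled on the gene median), of which 51.3% were higher. Of the 44 measured members 41 were above 0, against 56% of all genes, whose median was 0.05. Past 2-fold was Rpl39 alone, on the lower side, where 3.07% of all genes passed 2-fold in either direction and 0.793% were lower.

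The small subunit genes had a median of 0.25 over 12 bright members with ES and the large subunit genes 0.16 over 25 (0.11 and 0.03 under quantile normalization). Rpl18 had 3650 with ES and 2603 with ischemia, 40.2% higher. Rpsa, which encodes the small subunit protein also known as the laminin receptor, had 4846 with ES and 3595 with ischemia, 34.8% higher, and its other probe sets had log2 ratios of 0.42 and 0.18. Rps3 had 3406 with ES and 2531 with ischemia, 34.6% higher. Rplp0, the stalk protein that anchors the site where elongation factors bind, had 5842 with ES and 4481 with ischemia, 30.4% higher. These 4 were higher with ES under all 4 scalings.

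Rpl3 was 28.2% higher with ES, at 2243 against 1749 with ischemia, and 34 of 38 other bright members had lower ratios. Its dim second probe set had a log2 ratio of 0.03. Rpl3l had 5686 with ES and 5533 with ischemia, a log2 ratio of 0.04 that was -0.14 under quantile normalization and -0.04 when scaled on the gene median. Only 1 of 38 bright members, Rpl21, had a ratio under that of Rpl3l.

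Rpl7l1 had the highest ratio of the measured members with ES, 1.57-fold, at 251 against 160 with ischemia, and the other probe set of the gene gave 0.36 in log2. Rpl39 was 2.09-fold lower at 51.4 with ES against 108 with ischemia. Rps27l was 15.1% lower, at 197 with ES and 232 with ischemia. Rps4y2 differed by 3.72%, at 56.1 with ES and 58.3 with ischemia.

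Exercise was compared with ischemia on the same ischemia array, so this comparison shares it with those for ES and for ischemia against sham. A low reading on that array lowers a ratio for ischemia against sham and raises the ratios of ES and of exercise against ischemia. These comparisons are therefore not independent of each other. The median log2 ratio of the members was 0.18, 13.5% higher with exercise, and 0.08 under quantile normalization, while the median of all genes was 0.00 under both. Of the 44 measured members 40 were above 0 (36 under quantile normalization), against 47.7% of all genes. Past 2-fold was again Rpl39 alone, on the lower side, where 2.01% of all genes passed 2-fold in either direction and 0.872% were lower.

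All 12 bright small subunit genes were higher with exercise under each of the 4 scalings, with a median of 0.23 (0.12 under quantile normalization). Rpl18 had 3617 with exercise and 2603 with ischemia, 38.9% higher. Rpl12, at the base of the stalk, had 5492 with exercise and 4358 with ischemia, 26.0% higher. Rps23 had 8376 with exercise and 6749 with ischemia, 24.1% higher. Rplp0 was 21.5% higher and Rpsa 19.3% higher. These 5 were higher with exercise under all 4 scalings.

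Rpl3 was the one bright member lower with exercise, at 1595 against 1749 with ischemia, 8.82% lower. Its log2 ratio of -0.13 lay under those of all 38 other bright members, and the distance to their median was -0.32, between -0.32 and -0.24 over the 4 scalings. Its dim second probe set had a log2 ratio of -0.05. Rpl3l had 5684 with exercise and 5533 with ischemia, a log2 ratio of 0.04 (-0.10 under quantile normalization). Rpl39 was under the floor with exercise, at least 3.57-fold lower. Rps27l had 184 with exercise and 232 with ischemia, 20.5% lower, and Rps4y2 had 43.4 with exercise and 58.3 with ischemia, 25.6% lower. Rpl26l1 was 29.1% higher. Rpl7l1 was 36.0% higher, with 0.05 in log2 on the other probe set of the gene.

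**Figure D3:**
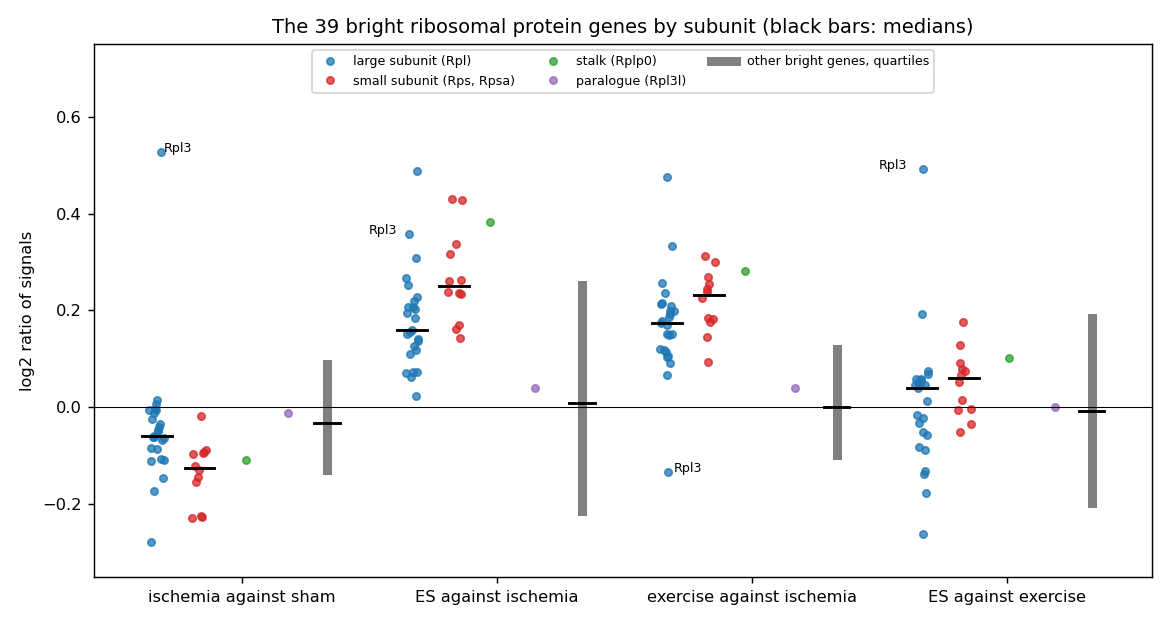
Log2 ratio of signals (y axis) of the 39 bright members in 4 comparisons (x axis); points are genes coloured by subunit, black bars are medians, and grey bars are the quartiles of 1186 other genes with a mean signal of at least 1000. Small subunit medians lie further from 0 than large subunit medians in all 4 comparisons with the common trimmed mean, and Rpl3 is the highest member for ischemia against sham and for ES against exercise and the lowest for exercise against ischemia.

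ES and exercise were also compared with each other. The member median was 0.05, and it was -0.0021 under quantile normalization and -0.027 when scaled on the gene median, so that no direction held. Above 0 were 28 of 44 members, against 54.5% of all genes, and none passed 2-fold, against 4.05% of all genes. Rpl3 was 40.6% higher with ES, 2243 against 1595 with exercise, above all 38 other bright members under each of the 4 scalings, while its dim second probe set had a log2 ratio of 0.08. Rpsa was 13.0% higher with ES and Rpl6 14.3% higher. Rpl12 was 16.6% lower with ES, at 4582 against 5492 with exercise, and Rpl21 (11.5% lower), Rpl7a (9.11% lower) and Rpl4 (8.65% lower) kept that direction under all 4 scalings. Rpl39 had 51.4 with ES and was under the floor with exercise, at least 1.71-fold higher.

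Rpl22 and Rpl7 are large subunit genes with known paralogues. Rpl22 had signals of 6036 with ES, 6281 with exercise, 5473 with ischemia and 5565 in sham, and was higher with exercise than with ischemia under all 4 scalings, while its ratios for ES against ischemia and for ischemia against sham changed sign with the scaling. Rpl7 had 5435 with ES, 5250 with exercise, 5009 with ischemia and 5048 in sham, and its ratio changed sign with the scaling in all 4 comparisons. Its dim second probe set had log2 ratios of 0.59 for exercise against ischemia and -0.58 for ES against exercise. The chosen probe set had 0.07 and 0.05 there. Rps4y2 and Rpl7l1 were higher with ES than with exercise, by 29.3% and 15.2%, and Rpl26l1 was lower, with a log2 ratio of -0.17.

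Bright members with and without an oligopyrimidine start had similar medians. With ES against ischemia they were 0.21 for 16 genes with the run and 0.22 for 17 without it, and with exercise against ischemia 0.19 for both. For ischemia against sham they were -0.06 with the run and -0.09 without. Over the 39 bright members, Pearson's r between the log2 mean signal and the log2 ratio was -0.46 for ES against ischemia, 0.04 for exercise against ischemia and -0.34 for ischemia against sham, which describes points that share the same arrays.

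**Figure D4:**
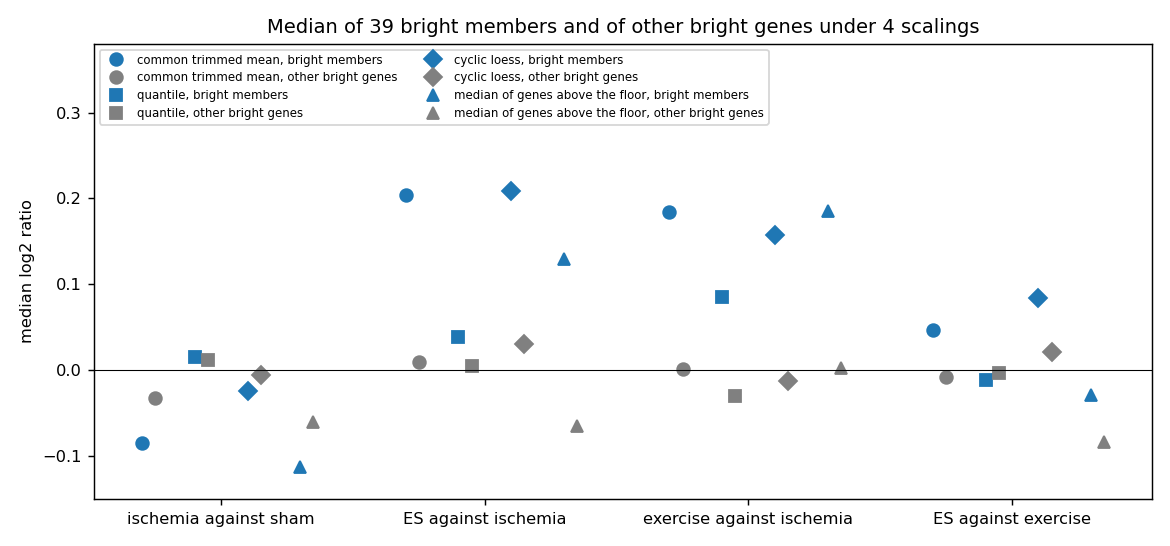
Median log2 ratio (y axis) of the 39 bright members (blue) and of the other bright genes (grey) in 4 comparisons (x axis) under 4 ways of scaling the arrays (marker shapes). The medians of the bright members for ES and for exercise against ischemia are above 0 under each scaling, and those for ischemia against sham and for ES against exercise change sign with the scaling. The medians of the other bright genes change sign with the scaling in all 4 comparisons.

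Other genes of translation are given for context, from lists chosen for their roles. Rack1, a protein of the small subunit outside the naming rule, had 4518 with ES, 4557 with exercise, 4060 with ischemia and 4351 in sham, lowest on the ischemia array under all 4 scalings. Of 10 elongation factor genes the median was 0.10 for ES and -0.03 for exercise against ischemia, and -0.03 for ischemia against sham. Eef2, which moves the ribosome along the mRNA, had 2593 with ES, 3025 with exercise and 2394 with ischemia. It was 1.08-fold higher with ES and 1.26-fold higher with exercise than with ischemia. Eef2k, the kinase that inhibits it and is counted in this list, had 365 with ES, 587 with exercise and 776 with ischemia. The log2 ratios of Eef2k against ischemia were -1.09 for ES and -0.40 for exercise. Eef1a1, the factor that delivers aminoacyl-tRNA, had 4218 with ES, 4241 with exercise, 3673 with ischemia and 3041 in sham, and Eef1a2, its muscle form, 1421, 1277, 1343 and 1337 in that order.

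The 31 measured initiation factor genes had medians of 0.01 for ES (-0.06 when scaled on the gene median) and 0.03 for exercise against ischemia, with none past 2-fold in any of the 4 comparisons. The 38 ribosome biogenesis genes had -0.08 for ES against ischemia, with 27 of 38 below 0 (41.7% of all genes), and -0.01 for exercise (0.01 under cyclic loess). Riok2, a kinase of small subunit maturation, was the only one past 2-fold, with 101 with ES and 211 with ischemia. The 17 genes of RNA polymerase I and rDNA transcription had 0.07 for ES (-0.0026 when scaled on the gene median) and 0.09 for exercise against ischemia, with none past 2-fold. Myc, a driver of ribosome synthesis, had 55.0 with ES, 44.1 with exercise, 49.4 with ischemia and 42.5 in sham.

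Of 23 measured genes of mTORC1 and TOP mRNA control, medians were -0.01 for ES (0.02 under cyclic loess) and -0.01 for exercise against ischemia (0.00 under cyclic loess). Ddit4, an inhibitor of mTORC1, had 436 with ES, 198 with exercise, 377 with ischemia and 325 in sham, a log2 ratio of 1.14 for ES against exercise. Tia1, an RNA-binding protein of stressed cells, had 63.5 with ES and was under the floor on the other 3 arrays, at least 2.11-fold higher than with ischemia. The 73 mitochondrial ribosomal protein genes had medians of 0.31 for ES against ischemia, 0.04 for exercise against ischemia and 0.28 for ES against exercise, where the cytosolic ones had 0.20, 0.18 and 0.05. The 36 proteasome subunit genes had -0.01 for ES (0.01 under quantile and under cyclic loess), -0.02 for exercise against ischemia and 0.02 for ES against exercise (-0.06 when scaled on the gene median). No test of these differences was possible.

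**Figure D5:**
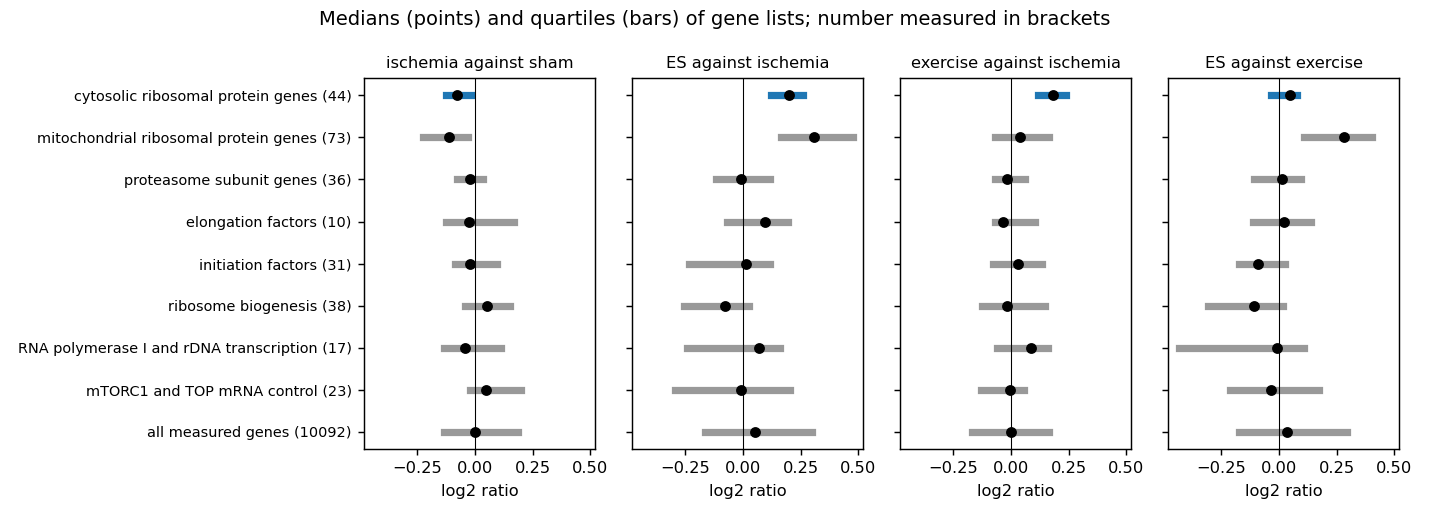
Median (points) and quartiles (bars) of log2 ratios (x axis) for gene lists (y axis, number measured in brackets) in 4 comparisons, each 1 array against another. The cytosolic ribosomal protein genes lie above 0 for both ES and exercise against ischemia, and the mitochondrial ones further above 0 for ES than for exercise.

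Sample make-up and RNA measures also differed between the arrays, some in the order of the bright members and others not. For actin, the probe set at the 3' end of the transcript was set over that at the 5' end. This ratio, which rises as RNA integrity falls, was 5.94 for ES, 4.34 for exercise, 3.81 for ischemia and 4.38 for sham. For GAPDH it was 1.26, 1.16, 1.04 and 1.16, so both ratios were lowest on the ischemia array and highest on the ES array. Muscle fibre markers (13 of 13 above the floor on all arrays) had summed signals of 137304, 141015, 124535 and 139729 in the same order, and 132478, 128593, 121565 and 128389 without Myh7. For ES against ischemia 11 of the 13 were higher, while Myh4 (10366 against 13178) and Pvalb (6738 against 11901) were lower. Macrophage markers (14 measured, 12 above the floor on all arrays) had 5079, 1932, 4337 and 1876, and without Lyz2 and Gpnmb 1368, 788, 1477 and 847. The genes left out of these sums were chosen after the values were seen. The median log2 ratio of the 14 macrophage markers was -0.05 for ES against ischemia, -1.06 for exercise against ischemia and 1.01 for ischemia against sham. Fibroblast markers (9 measured, 8 above the floor throughout) had 22609, 14736, 26600 and 14443. For ES against ischemia 5 of these 9 were lower and 4 higher, at a median log2 ratio of -0.40. Endothelial markers (9 of 10 measured) had 4769, 2599, 2352 and 2466, and satellite cell and myoblast markers (5 of 7) 4431, 1178, 1433 and 1623. Of the latter sums, Myh8 alone made up 2393 with ES and 86.4 with ischemia. For ES against ischemia 4 of these 5 markers were higher and Myod1 was lower, at 630 against 756. Pericyte and smooth muscle markers (9 measured) had 2485, 1691, 1569 and 1995, a sum lowest on the ischemia array and highest on the ES array. For ES against ischemia 8 of the 9 were higher and Lmod1 was lower, at 56.9 against 133. For ischemia against sham 6 of them were lower and 3 higher. Tendon markers (5 of 6) had 1180, 2081, 2228 and 1371, with 5 of 5 lower for ES against ischemia at a median log2 ratio of -1.18. Adipocyte markers (5 of 7) had 4512, 2809, 2524 and 2252, of which Fabp4 alone made up 4215, 2218, 2154 and 1989. For ES against exercise the median log2 ratio of the 5 adipocyte markers was -0.61, with 4 lower and 1 higher. The lists for Schwann cells, lymphocytes, neutrophils and erythroid cells were measured with 1 to 3 genes. In whole muscle, fewer cells of a type and less RNA per cell cannot be told apart, and the part of these measures in the members' values was not tested.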

How the data were processed

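Skeletal muscle RNA was measured on 4 single-colour arrays, 1 per group, with groups taken from the sample titles. The values deposited by the authors are linear intensities of probe sets, made with MAS5 per the submitters' processing notes (version not given in the sources used here), with a 2% trimmed mean of 150.1 on each array. Such scaling hides differences in total mRNA. Of 31099 probe sets, those with a single symbol in the platform annotation of 2016 covered 14218 genes, and 10092 were above the floor on at least 1 array. Probe sets with several symbols gave no gene a name. Ratios, medians and counts were computed in Python 3.11.15 (numpy, pandas), and quantile and cyclic loess normalization with limma 3.58.1 in R 4.3.3. The calculations were tested on simulated data. The members, lists and settings were chosen with earlier results of these data known. Named were, per comparison, members past 2-fold and the 5 highest and 5 lowest above the floor on both arrays, and throughout the paralogue pairs, Rplp0, Rpsa and Rps6, up to 4 genes of a context list past 2-fold, Rack1, Eef1a1, Eef1a2, Eef2 and Myc. Of the fixed names, Rpl39l, Rpl22l1, Rps27, Rpl10, Rpl10l, Rplp1, Rplp2, Rps27a and Rps4x had no single-symbol probe set. Over the 4 arrays the log2 signals of 18 hybridisation controls had an SD of 0.06 (median), and a value that moved by less was taken as unmoved. Precision is limited by having 4 arrays. Scanner files and detection calls were not used here.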

Additional observations from a re-analysis of the deposited data

How the results depend on the processing

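The alternatives tried were 2 normalizations, 2 floors, the mean of all probe sets, leaving out probe sets open to cross-hybridization, and thresholds of 1.5-fold and 3-fold. Scaling on the median of genes above the floor on all 4 arrays was chosen after seeing the data. Under quantile normalization the member medians were 0.036 for ES against ischemia, 0.078 for exercise against ischemia and 0.017 for ischemia against sham, which turned its sign. Ribosomal protein probe sets made up 5 of the 100, 32 of the 200 and 52 of the 300 brightest probe sets. Of all 31099 probe sets, 55 are of members and 36 carry several symbols with such a gene among them. What part this has in the quantile values was not tested. Scaling on the gene median gave 0.12 for ES against ischemia and -0.027 for ES against exercise. Counts past the threshold were 1 for ischemia against sham at 1.5-fold, with cyclic loess and with the floor at the 30th percentile, where the main setting gave 0. For ES against ischemia they were 2 at 1.5-fold, 0 at 3-fold and 0 with the floor at the 70th percentile, for exercise against ischemia 3 and 0 with the lower and the higher floor, and for ES against exercise 1 at 1.5-fold and with the lower floor. The shares of all genes at these settings are not given here, so these counts show nothing particular to the members. Of 580 values of 21 named members under these alternatives, 471 moved by less than the control spread and 109 by more. The floors and the choice among probe sets cannot change the ratio of a bright member with 1 probe set. Many of the 471 were therefore fixed in advance. Of the ratios past 2-fold, 0 changed sign, while Rpl3l and Rpl7 changed sign with the scaling in all 4 comparisons. The calls past 2-fold rest on Rpl39, whose signals lie near the floor. No paired analysis was possible because each group has 1 array.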

Other observations

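A further 36 probe sets carry several symbols, at least 1 of which is that of a cytosolic ribosomal protein gene, and were left out by the naming rule. Of these, 35 were above the floor on at least 1 array and 33 had a mean signal of at least 1000. Their median log2 ratio was 0.18 for ES against ischemia, with 32 of 35 above 0 (56% of all genes). It was 0.18 for exercise against ischemia, with 34 of 35 above 0 (47.7% of all genes). For ischemia against sham it was -0.07, with 29 of 35 below 0 (45.6% of all genes and 57.7% of the other bright genes). For ES against exercise it was 0.03. In each comparison 0 of them passed 2-fold, against 1.64% to 4.05% of all genes. The ischemia array was the lowest of the 4 for 28 of the 35, and for 30.8% of the other bright genes. They were read on the same arrays as the members and only with the common trimmed mean, so how far they depend on the scaling was not tested.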
